A study of Mus musculus with 90 samples.

Results

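The 46 genes described here encode the mouse major histocompatibility complex (H2) and its partners in antigen presentation. They were taken by name from the 18223 genes measured: the 37 genes whose symbol starts with H2-, and B2m, Tap1, Tap2, Tapbp, Tapbpl, Erap1, Nlrc5, Cd74 and Ciita. Their levels were compared between livers of female Diversity Outbred (J:DO) mice given zileuton at 300 mg per kg (49 animals) and livers of mice given the vehicle, sterile distilled water (41 animals), both once a day by mouth over 7 days. Zileuton inhibits 5-lipoxygenase, the first enzyme of leukotriene synthesis. All animals were 6 to 20 weeks old, each gave 1 library from 25 mg of liver, and coats were agouti, black or white in 34, 6 and 9 zileuton animals and in 29, 6 and 6 vehicle animals. Diversity Outbred mice descend from several founder strains, so each animal is genetically its own individual and the H2 alleles differ between animals. The labels do not give the alleles that an animal carried.

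Class I molecules pair a heavy chain with beta-2-microglobulin (B2m) and show peptides from inside the cell to cytotoxic T cells. Tap1 and Tap2 pump those peptides into the endoplasmic reticulum, Erap1 trims them, Tapbp (tapasin) and Tapbpl help to load them, and Nlrc5 is the transactivator of class I genes. Class II molecules, made by macrophages, dendritic cells and B cells, show peptides from engulfed material to helper T cells. Cd74 (the invariant chain) guards their groove, H2-DM exchanges its remnant for peptide, H2-O inhibits H2-DM, and Ciita is the transactivator of the class II genes. In the liver, hepatocytes make mostly class I molecules, and the resident macrophages, called Kupffer cells, are among the class II positive cells.

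Both gene classes are read through short promoter elements, of which the X box and Y box are bound by factors that recruit Ciita or Nlrc5. The promoters of 5 named heavy and class II chains are printed to show where those letters lie in the reference strain (250 bases before to 50 after the start, RefSeq, build GRCm38.p6, the assembly also called mm10). Capitals mark the letters that were searched on both strands: the Y box CTGATTGG (CCAATCAG on the other strand), a stretch of the X box CAACNGATG (N is any base), a stretch of the kappa B element GGGATTCCC and the CRE letters TGACGC. None of these words holds another.
H2-K1 promoter, chr17:34000298-34000597, minus strand: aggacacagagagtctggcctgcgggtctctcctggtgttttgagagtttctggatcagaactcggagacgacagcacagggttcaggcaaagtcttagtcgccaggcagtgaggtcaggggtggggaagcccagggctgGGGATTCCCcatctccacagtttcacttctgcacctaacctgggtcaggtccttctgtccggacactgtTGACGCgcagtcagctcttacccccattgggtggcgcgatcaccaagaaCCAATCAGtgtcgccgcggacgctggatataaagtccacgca
H2-D1 promoter, chr17:35262844-35263143, plus strand: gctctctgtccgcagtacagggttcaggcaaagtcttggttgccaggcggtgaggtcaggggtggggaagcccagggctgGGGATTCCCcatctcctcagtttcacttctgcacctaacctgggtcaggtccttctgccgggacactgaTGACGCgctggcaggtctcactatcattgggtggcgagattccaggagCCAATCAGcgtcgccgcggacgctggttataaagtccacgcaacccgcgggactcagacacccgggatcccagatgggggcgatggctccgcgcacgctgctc
H2-Q10 promoter, chr17:35469839-35470138, plus strand: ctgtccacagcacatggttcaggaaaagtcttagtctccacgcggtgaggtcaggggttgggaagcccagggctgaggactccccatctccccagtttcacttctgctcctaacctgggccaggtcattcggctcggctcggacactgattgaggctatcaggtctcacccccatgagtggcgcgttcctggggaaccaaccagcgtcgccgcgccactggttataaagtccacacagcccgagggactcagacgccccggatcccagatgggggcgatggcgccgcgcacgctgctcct
H2-Eb1 promoter, chr17:34305617-34305916, plus strand: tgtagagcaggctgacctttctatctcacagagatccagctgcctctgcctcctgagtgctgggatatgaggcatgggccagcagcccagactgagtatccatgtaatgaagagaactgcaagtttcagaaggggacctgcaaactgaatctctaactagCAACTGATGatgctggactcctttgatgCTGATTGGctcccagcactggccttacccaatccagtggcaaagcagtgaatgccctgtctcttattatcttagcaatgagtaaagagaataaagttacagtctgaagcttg
H2-Aa promoter, chr17:34287774-34288073, minus strand: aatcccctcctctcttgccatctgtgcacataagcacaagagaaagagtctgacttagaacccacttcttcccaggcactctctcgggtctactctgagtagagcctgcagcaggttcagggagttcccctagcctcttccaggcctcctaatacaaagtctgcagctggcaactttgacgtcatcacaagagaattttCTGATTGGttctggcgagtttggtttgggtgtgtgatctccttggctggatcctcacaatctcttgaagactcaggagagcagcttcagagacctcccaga
H2-K1 and H2-D1 share 3 of these elements in the same order: the kappa B letters, the CRE letters and the Y box letters. Counted from the start, the Y box letters begin at 8, past the start, in the printed H2-K1 promoter and at −53 in H2-D1. From another H2-K1 start in RefSeq, not printed here, they begin at −6. H2-Eb1 holds the X box letters from base 161 and the Y box letters from base 189. Of the 4 words searched, H2-Aa holds the Y box letters only, from base 200, and H2-Q10 holds none in this window. The CRE search took TGACGC alone, so another CRE form, the letters tgacgtca printed in the H2-Aa promoter, was neither marked nor counted. RefSeq gave a promoter for 29 of the 46 genes. A gene was counted if any of its promoters held the letters, whereas the percentages are of single promoters, so the 2 are not the same measure. Among these 29, the Y box letters were in 12 genes, against 4.1% of all 32851 promoters searched, and the kappa B letters were in 4 genes (H2-D1, H2-K1, H2-Q6 and H2-Q7), against 0.353% of all promoters. The X box letters were in 2 genes (H2-Eb1 and H2-Eb2; 0.566% of all promoters) and the CRE letters in 4 genes (7.4% of all promoters). A match is a run of letters and not a measured binding site, and no allele of another founder strain was read.

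Of the 46 genes, 42 had a position in GENCODE release M21 (build GRCm38), and 36 of these lie on chromosome 17 between bases 33915899 and 37483552. Libraries held 12664579 to 38865109 estimated counts in zileuton animals and 13064928 to 41360187 in vehicle animals. Estimated counts need not be whole, and how reads shared between genes were divided is not given in the labels. Of all values, 77.1% were whole to within 1e-09, whereas 16 of the 46 genes had no whole value in any animal, among them H2-Q1, H2-Q2, H2-Q5 to H2-Q9, H2-T9, H2-T10, H2-T22, H2-T23, H2-K2, H2-Bl, H2-T-ps and Tapbp. B2m, H2-Aa, H2-Ea-ps, Nlrc5 and Ciita were whole in every animal. Many class I heavy chain genes are near-identical copies of each other, so the levels of such genes, H2-K1 and H2-D1 included, are uncertain as a split of shared reads. H2-M3, a heavy chain of the M region, had 46.7% of its values whole. Tapbp is not a heavy chain, and why none of its values was whole was not tested. Reads were aligned to 1 reference genome, and whether alleles far from it were counted in full was not tested.

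Per kilobase of exon, B2m was the most abundant of the 42 genes with a known exon length, with a median of 1560 CPM (counts scaled to a common library total) per kb in zileuton livers and 1770 in vehicle livers. H2-Q10, a class I heavy chain that the mouse liver secretes, came next with 443 CPM per kb in zileuton livers and 479 in vehicle livers, ahead of the classical heavy chains H2-K1 (191 in zileuton, 213 in vehicle) and H2-D1 (151 in zileuton, 161 in vehicle). Quartiles of H2-K1 (145 to 248 in zileuton, 159 to 303 in vehicle) and of H2-D1 (123 to 176 in zileuton, 146 to 208 in vehicle) overlapped, so the order of this pair did not exceed the spread between animals. Cd74, at 53.4 CPM per kb in zileuton and 60.7 in vehicle livers, stood above the class II chains it escorts: H2-Ab1 (13.7 in zileuton, 16.6 in vehicle) and H2-Aa (12.3 in zileuton, 14.6 in vehicle). In this order neighbours such as H2-Ab1 and H2-Aa did not differ beyond the spread between animals. Nlrc5 (1.19 in zileuton, 1.24 in vehicle) and Ciita (0.155 in zileuton, 0.168 in vehicle) were scarce beside the main chains H2-K1, H2-D1, H2-Aa and H2-Ab1. H2-M3 (1.27 in zileuton, 1.51 in vehicle) stood close to Nlrc5, and H2-Ob (0.0777 in zileuton, 0.0968 in vehicle) and H2-Oa (0.0898 in zileuton, 0.145 in vehicle) stood below Ciita. H2-M10.2 and H2-M10.6 had medians of 0 in both arms.

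In zileuton livers 4 antigen presentation genes were called lower and none higher. H2-Q9 was 1.69-fold lower, and B2m, H2-D1 and H2-M3 were 1.11-fold, 1.16-fold and 1.18-fold lower, out of 38 genes with enough counts to be tested (edgeR quasi-likelihood F test, two-sided; a call is a p under 0.05 after Benjamini-Hochberg adjustment over all 13248 genes tested). Over all genes tested 29.3% were called, 14.4% higher and 14.8% lower, so these genes were not called more often than liver genes at large. Unadjusted, 9 of the 38 genes had p under 0.05 in edgeR on the lower side, the 4 called genes included, and 1 (Tapbp) on the higher side. Over all 13248 genes tested, 2686 were lower and 2501 higher at that unadjusted threshold. DESeq2 and limma-voom each called Tapbp. The log2 fold changes of the 38 genes had a median of −0.17 and ran from −0.76 (H2-Q9) to 0.19 (H2-T10), and 31 of them (81.6%) were below 0, against a median of −0.01 and 52.7% below 0 over all genes tested.

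B2m, the light chain that every class I molecule shares (chromosome 2, 122147686 to 122153083), had a lowest, median and highest value of 1056, 1342 and 2034 CPM in zileuton livers, against 1108, 1525 and 2027 CPM in vehicle livers. It lay below the vehicle median in 42 of 49 zileuton animals, although 46 of the 49 were inside the range of the vehicle animals. Its log2 fold change was −0.15 ± 0.05 (SE; adjusted p = 0.005558, edgeR), a 1.11-fold lower level. H2-D1, a classical heavy chain (chromosome 17, 35262730 to 35267499), had 234, 389 and 590 CPM in zileuton livers, against 247, 414 and 798 CPM in vehicle livers. The arms overlapped, the highest values being vehicle animals, and 30 of 49 zileuton animals were below the vehicle median. The log2 fold change of H2-D1 was −0.21 ± 0.08 (SE; adjusted p = 0.03246, edgeR).

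H2-M3, a nonclassical heavy chain that shows formylated peptides of bacteria and mitochondria (chromosome 17, 37270220 to 37274484), was low in both arms: 1.18, 1.82 and 3.59 CPM in zileuton livers, against 1.34, 2.17 and 4.24 CPM in vehicle livers. With 39 of 49 zileuton animals below the vehicle median, its log2 fold change was −0.24 ± 0.08 (SE; adjusted p = 0.01277, edgeR). H2-Q9, a Qa-2 heavy chain, had 0.139, 2.94 and 15.2 CPM in zileuton livers, against 0.0873, 4.41 and 18.9 CPM in vehicle livers. Values of single animals spanned most of that range in each arm, and 39 of 49 zileuton animals were below the vehicle median. The log2 fold change of H2-Q9 was −0.76 ± 0.26 (SE; adjusted p = 0.0204, edgeR). No value of H2-Q9 was whole, and reads of its neighbour H2-Q7, at 4.85, 17.5 and 52.4 CPM in zileuton and 6.56, 19.4 and 66.2 CPM in vehicle livers, could be counted to either.

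**Figure D1:**
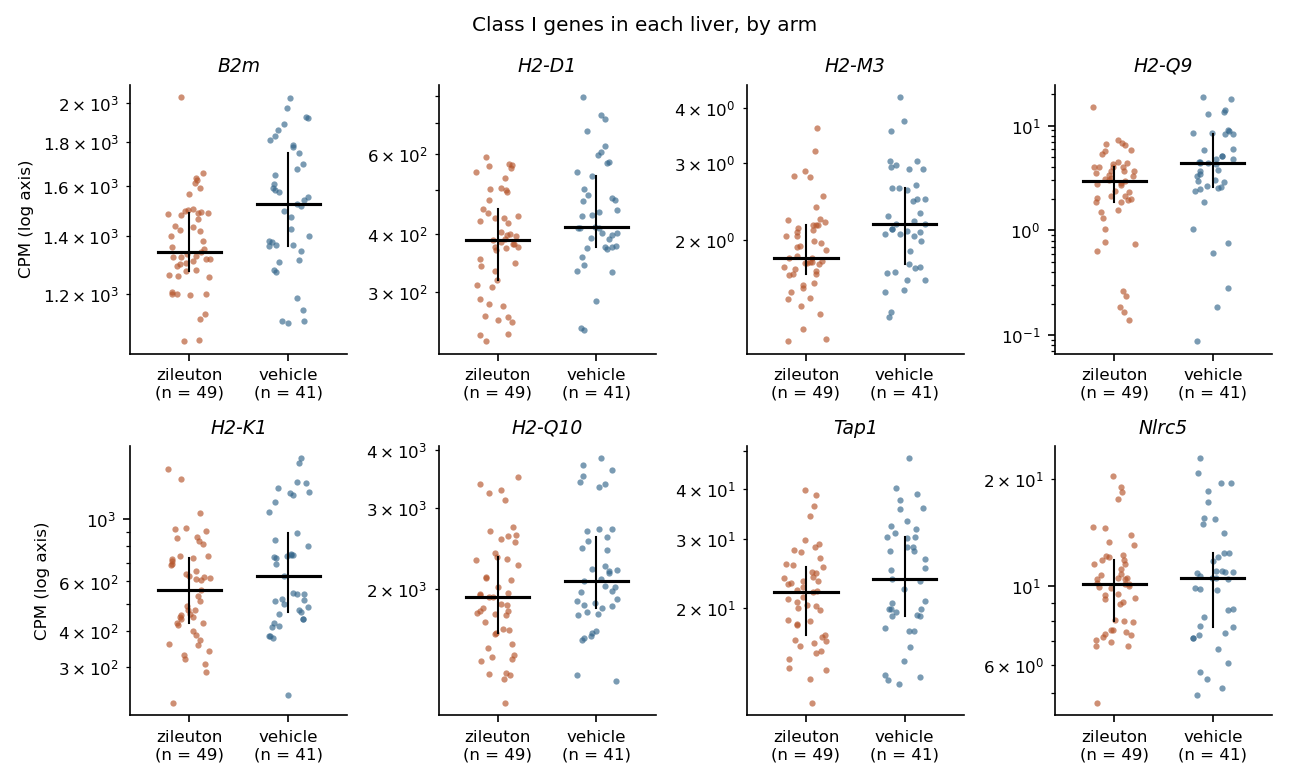
Each point is 1 liver, with CPM on a log axis, for 8 genes of the class I pathway in zileuton (left, n = 49) and vehicle (right, n = 41) animals; horizontal bars are medians and vertical bars quartiles. The medians of B2m were 1342 CPM in zileuton and 1525 CPM in vehicle, and the arms overlap in every panel.

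H2-K1, the other classical heavy chain (chromosome 17, 33996017 to 34000347), did not pass the threshold. It had 224, 561 and 1497 CPM in zileuton livers, against 239, 625 and 1635 CPM in vehicle livers, and a log2 fold change of −0.29 ± 0.13 (SE; adjusted p = 0.08471, edgeR). The liver-secreted H2-Q10 had 1136, 1924 and 3503 CPM in zileuton livers, against 1265, 2082 and 3844 CPM in vehicle livers. Its log2 fold change was −0.16 ± 0.09 (SE; adjusted p = 0.1601, edgeR). Of the 20 tested heavy chains, 3 were called, all lower, and 16 were below 0. The 9 tested genes of the Q region had a median log2 fold change of −0.20, and the 7 of the T region had −0.15. H2-T23, which encodes Qa-1, a ligand of inhibitory receptors on natural killer cells, was at −0.34 ± 0.14 (adjusted p = 0.06062, edgeR).

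The peptide supply of class I did not move as 1 group. Tap1 had 11.5, 21.9 and 39.8 CPM in zileuton livers, against 12.9, 23.7 and 47.99 CPM in vehicle livers, with a log2 fold change of −0.17 ± 0.09 (SE; adjusted p = 0.1539, edgeR). Tapbp was on the other side of 0, at 0.14 ± 0.06 (SE; adjusted p = 0.06204, edgeR), and 39 of 49 zileuton livers exceeded the vehicle median. It was not called in the edgeR fit, and DESeq2 placed it at 0.15 with an adjusted p of 0.0465. Tap2 (−0.08), Tapbpl (0.02) and Erap1 (0.07) were close to 0 on the log2 scale. Nlrc5 had 4.71, 10.1 and 20.4 CPM in zileuton livers, against 4.93, 10.57 and 22.9 CPM in vehicle livers, with a log2 fold change of −0.07 ± 0.10 (SE; adjusted p = 0.6451, edgeR).

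Class II genes gave no call: 0 of the 10 tested class II chains, editors, partner and regulator passed in edgeR, DESeq2 or limma-voom. Unadjusted, 1 (H2-Ob, lower) had p under 0.05 in edgeR, against 2686 lower and 2501 higher of all 13248 genes tested. All 10 were below 0, from −0.38 (H2-Ea-ps) to −0.08 (H2-DMb2), with a median log2 fold change of −0.23. H2-Aa, the alpha chain of I-A, had 11.2, 46.7 and 107 CPM in zileuton livers, against 13.5, 55.6 and 135 CPM in vehicle livers. Its beta chain H2-Ab1 had 7.08, 35.3 and 75.1 CPM in zileuton livers, against 11.2, 42.6 and 113 CPM in vehicle livers. Their log2 fold changes were −0.24 ± 0.15 and −0.28 ± 0.14 (SE), with adjusted p of 0.2282 and 0.1321 in edgeR. In bulk liver, fewer cells of a type and less RNA per cell cannot be told apart.

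Cd74 had 25.6, 89.6 and 204 CPM in zileuton livers, against 29.6, 102 and 252 CPM in vehicle livers. The arms overlapped over most of their range, with a log2 fold change of −0.18 ± 0.14 (SE; adjusted p = 0.3363, edgeR). Ciita had 0.253, 1.48 and 6.93 CPM in zileuton livers, against 0.598, 1.602 and 4.32 CPM in vehicle livers. Both extremes of Ciita were zileuton animals, and its log2 fold change was −0.16 ± 0.17 (SE; adjusted p = 0.5207, edgeR). The beta chain of I-E, H2-Eb1, had 0.836, 20.6 and 71.4 CPM in zileuton livers, against 1.25, 26.2 and 81.3 CPM in vehicle livers, with a log2 fold change of −0.27 ± 0.28 (SE; adjusted p = 0.511, edgeR).

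**Figure D2:**
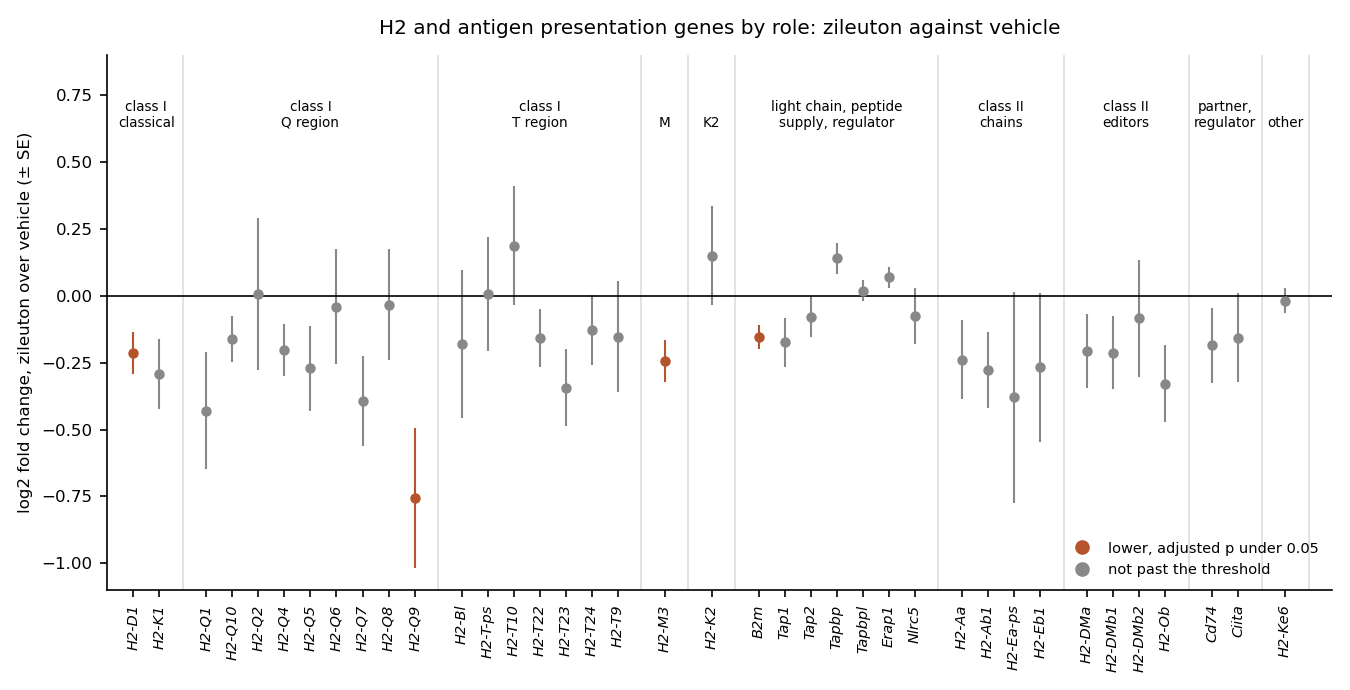
Log2 fold changes of the 38 tested genes (zileuton over vehicle, error bars ± SE), grouped by role along the horizontal axis; orange points passed the adjusted p threshold. The 4 orange points, H2-D1, H2-Q9, H2-M3 and B2m, are all below 0, and no class II gene is among them.

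The 8 genes below the count filter were H2-Eb2, H2-L, H2-M10.2, H2-M10.6, H2-M2, H2-M5, H2-Oa and H2-T3. H2-M10.2, a member of a family known from sensory neurons of the vomeronasal organ, had no count in 34 of 49 zileuton and 36 of 41 vehicle animals and at most 8 counts in a zileuton and 3 in a vehicle library. With no filter it was called higher in zileuton (log2 fold change 1.93 ± 0.47 SE, adjusted p = 0.0009381, edgeR), at counts near 0. H2-Oa, the alpha chain of the H2-DM inhibitor, had medians of 0.126 CPM in zileuton and 0.203 CPM in vehicle livers. H2-Ke6, which shares the H2 name by position and encodes a steroid dehydrogenase, was at −0.02 on the log2 scale.

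Other measures moved between the arms together with the 4 calls. All 16 clock genes looked at differed (edgeR): 5 of 5 in the phase of Bmal1 fell and 11 of 11 in the opposite phase rose. With a score of these clock genes as a covariate, none of the 4 calls was kept and the log2 fold changes were −0.15 for B2m, −0.24 for H2-D1, −0.26 for H2-M3 and −1.13 for H2-Q9. Tap1, not called otherwise, was at −0.45 in that fit (adjusted p = 0.02742, edgeR). Animal numbers ran in blocks of 50, and zileuton animals held places 25 to 50 of a block and vehicle animals places 13 to 20, so what follows the place in the block cannot be told apart from zileuton. With that place as a covariate no call was kept, and the log2 fold changes were −0.03 for B2m, −0.06 for H2-D1, −0.17 for H2-M3 and −0.82 for H2-Q9. Over all genes 217 were then called in place of 3878, and with the clock score 384. Summed T and NK cell markers had a median of 3.66 CPM in zileuton livers (lowest 1.64, highest 10.5) and 4.67 CPM in vehicle livers (lowest 2.12), and 2 of the 6 tested (Cd3d and Cd3g) fell; Cd2, Cd8a, Klrb1c and Ncr1 were too low to test. The hepatocyte markers were also lower, at 108000 CPM in zileuton and 123000 CPM in vehicle livers (medians), with 5 of 6 tested fallen. The part of these measures in the 4 calls was not tested beyond those fits.

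The 4 calls differed in how well they kept. With plate row and column as covariates B2m alone kept its call, at −0.15 (adjusted p = 0.01411, edgeR). H2-Q9 lost its call in limma-voom (−0.66, adjusted p = 0.1231), with the authors' normalized values (−0.64, adjusted p = 0.1155, limma) and with the block of animal numbers as a covariate (−0.65, adjusted p = 0.06399, edgeR), against −0.76 in the full fit. H2-D1 lost it without the 9 libraries of lowest total (−0.16, adjusted p = 0.1106, edgeR) and without any 1 of vehicle replicates 7, 10, 11 or 37 (edgeR adjusted p up to 0.06234), where the log2 fold change was −0.1944 to −0.1846 and so moved little from −0.21. Within the 7 blocks of animal numbers with at least 3 animals per arm, B2m was lower in zileuton in 5 blocks, H2-D1 in 6, H2-M3 in 4 and H2-Q9 in 5. H2-Q5, a Q region gene that was not called, was lower in 7 of 7.

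Measured levels of most of these genes spread more widely between animals than those of most liver genes. The genes ranked against were not matched on level. How far shared reads, or alleles far from the reference, entered the spread was not tested. Spread was the mean absolute deviation from the arm median of log2 CPM, and 37 of the 46 genes were abundant enough for it. In zileuton animals 21 of the 37, and in vehicle animals 22, were above the 90th percentile of all 11857 genes, with median percentiles of 92.3 in zileuton and 91.7 in vehicle. At the wide end stood H2-Ea-ps, with a spread of 2.28 in zileuton and 1.67 in vehicle animals, and other wide genes were H2-Eb1 (1.27 in zileuton, 1.16 in vehicle), H2-Q2 (1.11 in zileuton, 1.24 in vehicle), H2-Q9 (0.97 in zileuton, 1.07 in vehicle) and H2-Bl (0.90 in zileuton, 1.24 in vehicle). Narrow genes included H2-Ke6 (0.180 in zileuton, 0.149 in vehicle) and 3 of the 6 genes off chromosome 17, whereas the other 3 of those 6, Nlrc5, Cd74 and Ciita, were wider (0.324, 0.569 and 0.669 in zileuton, 0.442, 0.502 and 0.518 in vehicle). B2m had a spread of 0.138 in zileuton and 0.201 in vehicle, Erap1 0.143 in both, and Tapbpl 0.134 in zileuton and 0.161 in vehicle. Tapbp, on chromosome 17, had 0.181 in zileuton and 0.275 in vehicle.

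The arms were not shown to differ in spread. By limma on the absolute deviations 0 of 37 genes were called, against 0.0337% of all genes (4 of 11857; 0.0253% wider and 0.00843% narrower in zileuton animals). Unadjusted, 2 had p under 0.05, Tapbp (0.008598) and B2m (0.02455), both narrower in zileuton animals, with adjusted p of 0.3905 and 0.4858 (limma). The share of all genes at that unadjusted threshold was not determined. The spread was larger in zileuton animals for 20 genes and smaller for 17.

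**Figure D3:**
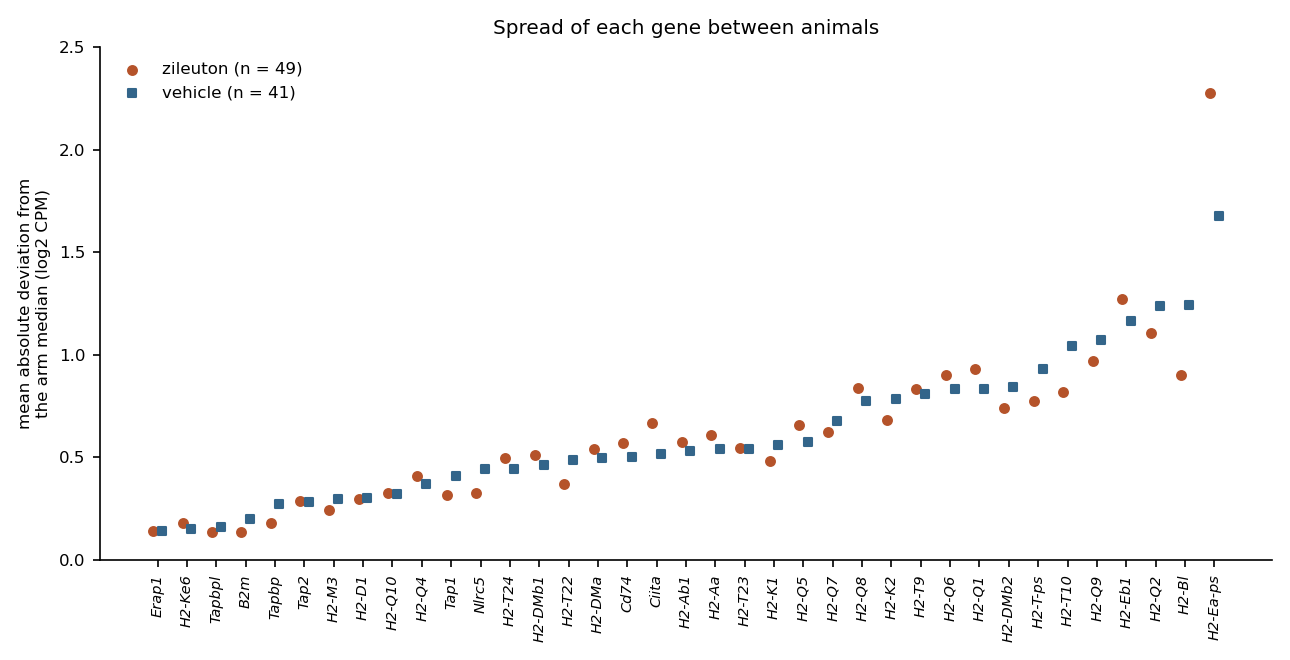
Spread of each of 37 genes between animals (mean absolute deviation from the arm median, log2 CPM), in zileuton (circles) and vehicle (squares) animals, ordered by the vehicle value. H2-Ea-ps stands apart at 2.28 in zileuton and 1.67 in vehicle, and B2m, Erap1, Tapbpl and H2-Ke6 are at the low end.

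In vehicle animals the widest interquartile ranges of log2 CPM were those of H2-Bl, H2-Q9, H2-K2, H2-T-ps and H2-Ea-ps. They were 1.64, 1.08, 1.25, 0.97 and 6.13 in zileuton animals and 1.83, 1.65, 1.56, 1.47 and 1.45 in vehicle animals, in that order of genes. For H2-Ea-ps the first quartile was near 0 in zileuton animals (0.107 CPM) and not in vehicle animals (5.82 CPM). Its spread was not called different between the arms (adjusted p = 0.779, limma on the absolute deviations). H2-Bl (chromosome 17, 36080115 to 36084223, annotated as a polymorphic pseudogene) had 0.471, 5.87 and 32.8 CPM in zileuton livers, against 0.202, 5.11 and 39.6 CPM in vehicle livers. H2-K2, a transcribed pseudogene beside H2-K1, had 5.65, 29.2 and 81.7 CPM in zileuton livers, against 5.09, 28.7 and 74.9 CPM in vehicle livers. H2-T-ps, an unprocessed pseudogene, had 0.747, 12.9 and 32.6 CPM in zileuton livers, against 0.337, 12.4 and 39.02 CPM in vehicle livers. For these 3 genes the highest animal exceeded the lowest by 69.5-fold, 14.5-fold and 43.7-fold among zileuton animals, and by 196-fold, 14.7-fold and 116-fold among vehicle animals. An interquartile range of at least 1 on the log2 scale was seen in 15 of the 38 tested genes in zileuton and in 14 in vehicle animals.

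H2-Ea-ps, the alpha chain of I-E (chromosome 17, 34341959 to 34344645), was present in some livers and near 0 in others. As background, C57BL/6, the strain of the reference genome, lacks I-E because its Ea gene carries a promoter deletion, and other strains express it. H2-Ea-ps had 0, 7.99 and 34.04 CPM in zileuton livers, against 0, 10.4 and 54.0 CPM in vehicle livers, and no count at all in 7 zileuton and 3 vehicle animals. Sorted over all 90 animals, the values broke between 0.12 and 2.23 CPM, with 20 animals below (13 zileuton, 7 vehicle) and 70 above. This gap of 3.55 on the log2 scale was the widest of any of the 38 genes with at least 9 animals on each side. The arms were not shown to differ in level, with a log2 fold change of −0.38 ± 0.40 (SE; adjusted p = 0.5088, edgeR).

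H2-Eb1, its beta chain partner (chromosome 17, 34305867 to 34316674), also fell into 2 ranges. The values broke between 2.58 and 7.18 CPM, a gap of 1.45 on the log2 scale, with 15 animals below (9 zileuton, 6 vehicle) and 75 above. Unlike H2-Ea-ps, none was without counts. The animals below both gaps numbered 5 (3 zileuton, 2 vehicle), which is 25% of those low in H2-Ea-ps and 33.3% of those low in H2-Eb1, so the low animals of the pair were mostly different animals. H2-Q2 had the next widest gap, 0.72 on the log2 scale. These breaks are a description of the values, and no comparison was made between animals on either side.

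**Figure D4:**
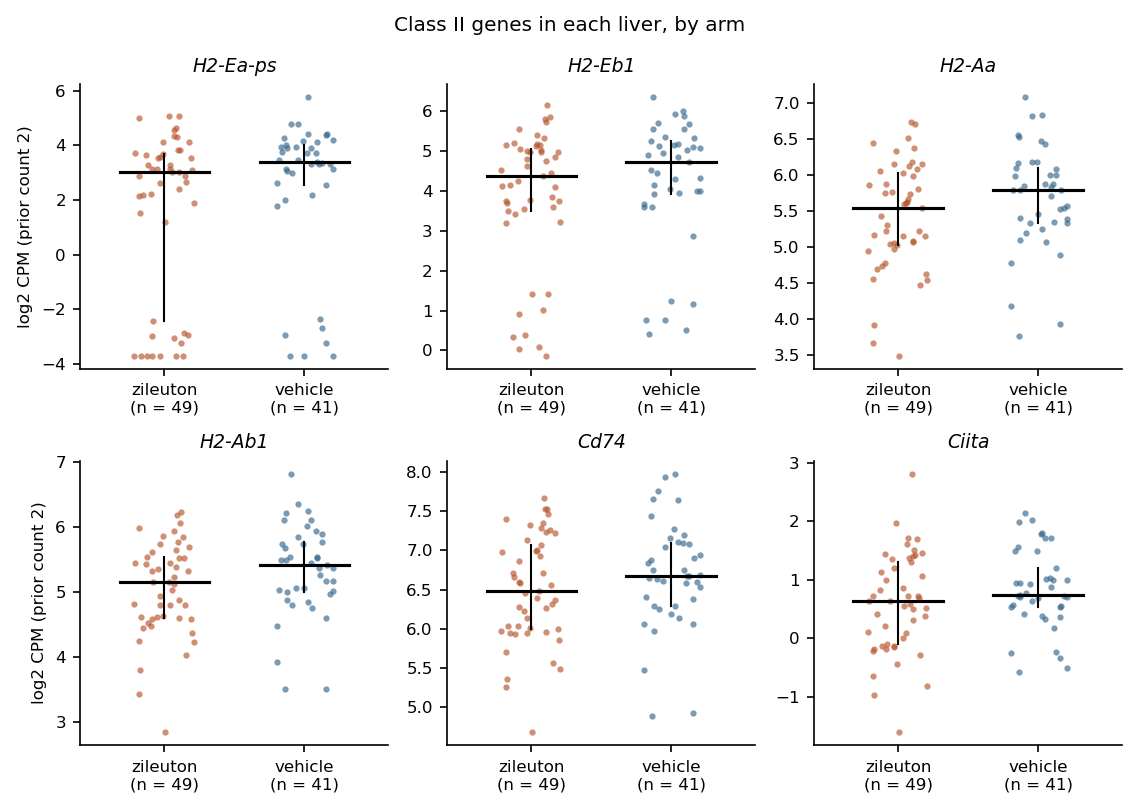
Each point is 1 liver, with log2 CPM (prior count 2) on the vertical axis, for 6 class II genes in zileuton (left, n = 49) and vehicle (right, n = 41) animals; bars are medians and quartiles. H2-Ea-ps and H2-Eb1 each leave an empty band between a low set of animals (20 and 15 of 90) and the rest, whereas H2-Aa, H2-Ab1, Cd74 and Ciita show no such band.

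Coat colour, an inherited trait that the labels give for each animal, gave no call in these genes. In an edgeR fit with exposure as a term, 0 of 38 genes were called in white against agouti animals (background 0.00755% of all genes) and 0 in black against agouti animals (background 0.0453%, of which 0.0226% higher and 0.0226% lower), and DESeq2 also called 0 in both. Unadjusted, 1 gene (H2-Ob, lower) had p under 0.05 in edgeR for white coats and 6 (all higher) for black coats. The 6 were H2-Bl, H2-Ob, H2-Q7, H2-T22, H2-T23 and Tapbp, which all lie on chromosome 17, so they need not be independent. The share of all genes at that unadjusted threshold was not determined for either coat colour. The log2 differences ran from −0.75 (H2-Ea-ps) to 0.39 (H2-Bl) for white over agouti, and from −0.58 (H2-Q9) to 0.92 (H2-Bl) for black over agouti. With 15 white and 12 black animals these estimates were wide, at 0.93 ± 0.38 (SE; adjusted p = 0.6897) for H2-Bl in black coats.

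Across animals the class II genes were positively correlated with Ciita, some strongly and others weakly. No correlation was adjusted for cell content, and the part of shared cell content in these r was not tested. Within each arm, log2 CPM of Ciita was correlated with 7 class II genes and log2 CPM of Nlrc5 with 26 class I genes, 66 relations in all with Benjamini-Hochberg adjustment over them (100000 permutations, two-sided). H2-Ea-ps and H2-Eb1 were left out because their values fall into separate ranges. Ciita passed with 7 of 7 genes in zileuton animals (median r 0.802) and with 7 of 7 in vehicle animals (median r 0.769). The share of all liver genes that pass with Ciita was not determined, so these counts do not set class II genes apart from other genes. The strongest was H2-DMa, the alpha chain of the peptide editor, with r = 0.850 and rho = 0.814 in zileuton animals and r = 0.818 and rho = 0.752 in vehicle animals. Both had permutation p = 1e-05, the smallest these permutations can give, and adjusted p = 5.5e-05 for r and 6e-05 for rho. Without the 2 animals farthest from the median of Ciita, r was 0.793 in zileuton and 0.772 in vehicle animals, and with the means of the blocks of animal numbers removed it was 0.842 in zileuton and 0.809 in vehicle animals. Within single blocks of at least 6 animals r ran from 0.678 to 0.935 in zileuton (5 blocks) and from 0.698 to 0.970 in vehicle animals (3 blocks).

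The weakest relation of Ciita was with H2-Ob in zileuton animals (r = 0.378, rho = 0.322, permutation p = 0.00787 and 0.0245, adjusted p = 0.026 and 0.0677) and with H2-DMb2 in vehicle animals (r = 0.446, rho = 0.490, permutation p = 0.00325 and 0.00112, adjusted p = 0.0126 and 0.00528). Both are scarce genes, and neither relation passed with the block means removed (r = 0.266 for H2-Ob in zileuton, 0.328 for H2-DMb2 in vehicle). That for H2-DMb2 also did not pass without the 2 farthest vehicle animals (r = 0.302), whereas that for H2-Ob was r = 0.430 without the 2 farthest zileuton animals. Within single blocks r ran from 0.219 to 0.553 for H2-Ob in zileuton and from −0.156 to 0.791 for H2-DMb2 in vehicle animals.

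Correlations of class I genes with Nlrc5 were lower in value, and those past the threshold in vehicle animals were B2m and 5 genes of peptide supply. In zileuton animals 3 of 26 relations passed (H2-Q9, H2-D1 and Tap1; median r over the 26 of 0.137), and in vehicle animals 6 of 26 passed (Tap1, Tap2, Tapbp, Tapbpl, Erap1 and B2m; median r 0.227). The highest in zileuton animals was H2-Q9 (r = 0.381, rho = 0.392, permutation p = 0.0071 and 0.00571, adjusted p = 0.0247 and 0.0198), and the lowest was H2-T23 (r = −0.0387, rho = −0.00827, adjusted p = 0.916 and 0.969 by permutation). The highest in vehicle animals was Tap1 (r = 0.685, rho = 0.741, permutation p = 1e-05 for both, adjusted p = 5.5e-05 and 6e-05), and the lowest was H2-Bl (r = −0.0686, rho = −0.035, adjusted p = 0.79 and 0.958 by permutation). Tap1 in zileuton animals had r = 0.351 and rho = 0.249 (permutation p = 0.0128 and 0.0835, adjusted p = 0.0383 and 0.204). The difference between the arms in any of these r was not tested. For Nlrc5, too, the share of all liver genes that pass was not determined.

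Without the 2 animals farthest from the median of Nlrc5, r of H2-Q9 in zileuton animals was 0.332 and that of Tap1 was 0.204, neither past the threshold. Of the 3 relations in zileuton animals that of H2-D1 was kept (r = 0.386). For H2-Q9 the call was lost with r moving little, and for Tap1 r fell further. In vehicle animals Tap1 kept r = 0.652 without its 2 farthest animals and r = 0.636 with block means removed, and was positive within all 3 blocks of at least 6 vehicle animals (0.506 to 0.848). With block means removed r in zileuton animals was 0.425 for H2-Q9, 0.368 for Tap1 and 0.271 for H2-D1, the last no longer past the threshold. Within 5 single blocks of zileuton animals r ran from −0.312 to 0.688 for H2-Q9, from −0.562 to 0.867 for Tap1 and from −0.453 to 0.510 for H2-D1.

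**Figure D5:**
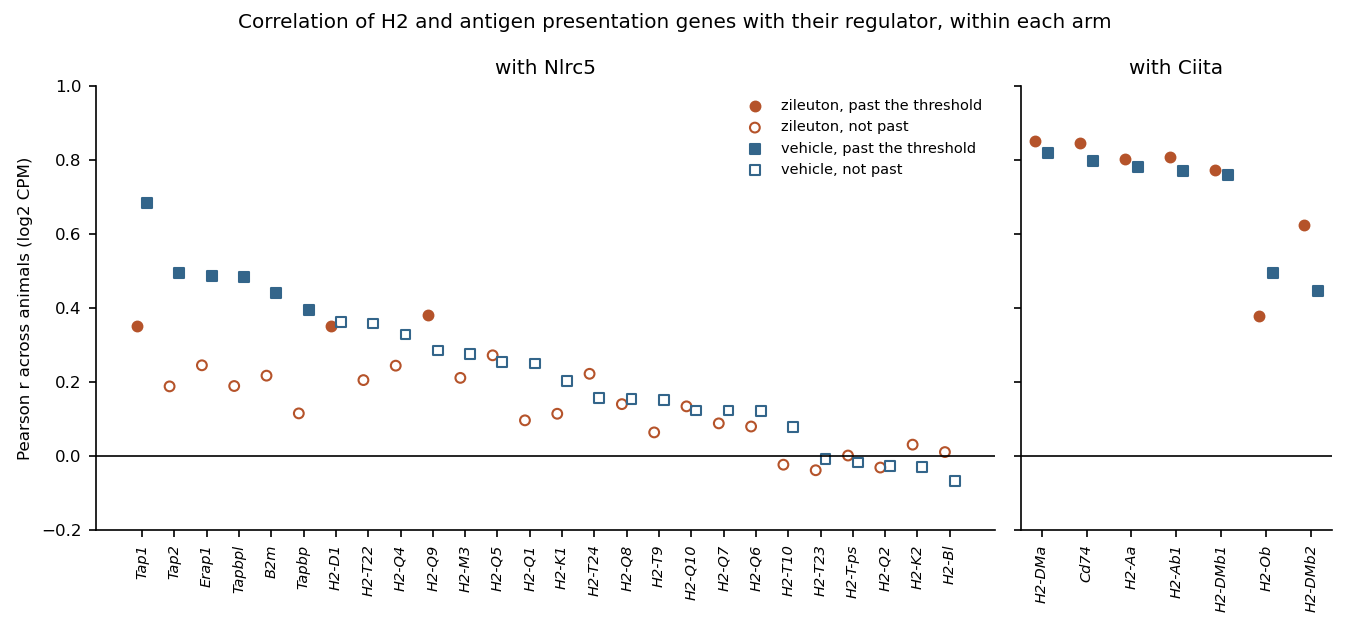
Pearson r across animals (log2 CPM) of 26 class I genes with Nlrc5 (left) and of 7 class II genes with Ciita (right), in zileuton (circles, n = 49) and vehicle (squares, n = 41) animals; filled symbols passed an adjusted permutation p of 0.05. Ciita reaches 0.850 with H2-DMa in zileuton, whereas the highest r with Nlrc5 is 0.685, for Tap1 in vehicle animals.

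Cd74, the class II gene set against cell type markers, was correlated with those of Kupffer cells and, at a lower r, with those of dendritic cells. The 12 Kupffer cell markers, all tested, summed to 98 to 642 CPM in zileuton livers (median 248) and to 53.6 to 945 CPM in vehicle livers (median 276), and 1 of the 12 (Cd163) was called, higher. Cd74 was correlated with that sum at r = 0.864 and rho = 0.869 in zileuton animals and at r = 0.783 and rho = 0.701 in vehicle animals (permutation p = 1e-05 for each, the smallest possible; adjusted p = 3e-05 over 6 relations). Dendritic and B cell marker sums were far lower, with medians of 5.41 and 2.59 CPM in zileuton livers and 6.04 and 2.92 CPM in vehicle livers. Counting error weighs more at such levels, and the order of r between the 3 cell types was not tested. Of 10 dendritic cell markers 6 passed the count filter (Flt3, Cd209a, Siglech and Ccr7 did not). With dendritic cell markers r was 0.561 and rho 0.539 in zileuton animals (permutation p = 3e-05 and 9e-05, adjusted p = 6e-05 and 0.00018), and r was 0.443 and rho 0.473 in vehicle animals (permutation p = 0.00386 and 0.00179, adjusted p = 0.00579 and 0.00268). With B cell markers, of which 3 of 8 passed the count filter (Ms4a1, Pax5, Cr2, Fcer2a and Blk did not), r was 0.268 and rho 0.302 in zileuton animals (permutation p = 0.0619 and 0.0352, adjusted p = 0.0619 and 0.0352), and r was 0.403 and rho 0.443 in vehicle animals (permutation p = 0.00988 and 0.00431, adjusted p = 0.0119 and 0.00517). Without the 2 animals farthest from the median marker sum, the Kupffer relation was r = 0.848 in zileuton and 0.694 in vehicle animals, the dendritic one 0.566 in zileuton and 0.373 in vehicle, and the B cell one 0.222 in zileuton and 0.328 in vehicle. With block means removed, the same 3 relations were 0.839, 0.507 and 0.153 in zileuton animals and 0.701, 0.425 and 0.332 in vehicle animals.

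A few animals held the extremes of many genes at once. Zileuton replicate 12 was the lowest zileuton animal for 12 of the 38 genes, among them Cd74, Ciita, H2-Aa, H2-Ab1, H2-DMa, H2-DMb1, H2-T23 and H2-Q7, and had the lowest Kupffer marker sum of its arm, 98 CPM. Vehicle replicate 29 was the lowest vehicle animal for 5 genes, all of class II (Cd74, Ciita, H2-Aa, H2-DMb1 and H2-DMb2), and had the lowest Kupffer marker sum of its arm, 53.6 CPM. Vehicle replicate 23 was the lowest vehicle animal for 7 genes, all class I heavy chain genes (H2-Bl, H2-K2, H2-Q2, H2-Q4, H2-Q5, H2-T-ps and H2-T10), with a Kupffer marker sum of 279 CPM, rank 20 of 41. Vehicle replicate 10 was the highest vehicle animal for 10 genes, among them Tap1, Tap2, Tapbp, H2-T23, H2-Ob and H2-DMb1. That liver also had the highest sum of B cell markers (28.3 CPM, against a vehicle median of 2.92) and of T and NK cell markers among vehicle animals. Vehicle replicate 9 had the highest Kupffer marker sum of its arm, 945 CPM. It was the highest vehicle animal for Erap1, H2-M3 and H2-T10, none of them a class II gene. Zileuton replicate 46, with the highest Kupffer sum of its arm (642 CPM), was the highest zileuton animal for H2-DMb2, H2-Eb1, H2-K2 and H2-M3. Zileuton replicate 34, at rank 48 of its arm in that sum, was the lowest zileuton animal for H2-Bl, H2-Q1 and H2-T10. The part of these cell type markers in the levels of H2 genes was not tested beyond these correlations.

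Among 5 lists of genes that work beside these in antigen presentation, between 0 and 4 genes a list were called, to be read against 29.3% called over all genes (14.4% higher, 14.8% lower). Of 5 genes of the immunoproteasome and its activator, which cut peptides for class I, 1 rose: Psme1, with 53.8, 76.1 and 141 CPM in zileuton livers, against 50.5, 66.4 and 109 CPM in vehicle livers (log2 fold change 0.16 ± 0.06 SE, adjusted p = 0.03363, edgeR). Of 3 endoplasmic reticulum folding factors of the class I heavy chain 2 fell, the chaperone Calr (calreticulin; −0.38 ± 0.06 SE, adjusted p = 5.646e-07, edgeR) and the disulfide isomerase Pdia3 (−0.26 ± 0.06 SE, adjusted p = 0.0001656, edgeR). Calr had 383, 631 and 882 CPM in zileuton livers, against 508, 787 and 1493 CPM in vehicle livers, and 43 of 49 zileuton livers were under the vehicle median. Both also fold many other glycoproteins. Of 6 genes resembling class I outside H2, 1 rose: Fcgrt, the heavy chain of the neonatal Fc receptor, which also binds B2m (0.15 ± 0.05 SE, adjusted p = 0.006996, edgeR). Its levels were 132, 177 and 239 CPM in zileuton livers, against 117, 162 and 217 CPM in vehicle livers, the opposite direction to B2m.

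Of 10 factors of the X box, the Y box and the interferon response, 4 fell and none rose, against 14.8% lower and 14.4% higher over all genes tested. Rfxank, a subunit of the RFX complex that binds the X box, had 6.61, 12.1 and 16.8 CPM in zileuton livers, against 7.78, 16.8 and 28.4 CPM in vehicle livers, so that 48 of 49 zileuton livers were under the vehicle median. Its log2 fold change was −0.53 ± 0.07 (SE; adjusted p = 9.376e-09, edgeR). The Y box subunits Nfyc (−0.13) and Nfya (−0.12) and the CRE factor Creb1 (−0.21) also fell, with adjusted p of 0.0001588, 0.03028 and 6.744e-05 in edgeR. The other two subunits of RFX were near 0, Rfx5 at −0.03 and Rfxap at −0.04. Irf1, an interferon factor, was at −0.01 on the log2 scale (adjusted p = 0.9297, edgeR). Of 5 class II endosome proteases and reductase genes, 0 were called by edgeR, DESeq2 or limma-voom. Unadjusted, 1 (Ctsl, lower) had p under 0.05 in edgeR, against 2686 lower and 2501 higher of all 13248 genes tested. The most abundant of them, Ctsb (cathepsin B), had medians of 765 CPM in zileuton and 761 CPM in vehicle livers. Median log2 fold changes of the lists were 0.05 for the immunoproteasome, −0.26 for the folding factors, 0.05 for the genes resembling class I, −0.10 for the promoter factors and −0.04 for the endosome genes, beside −0.01 for all genes tested.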

How the data were processed

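The authors deposited a table of estimated counts per gene and animal and a table of signal values. The signal values are the rounded estimated counts divided by 1 size factor per animal, by the ratio of the deposited tables (largest relative deviation 5.0e-06). STAR, Partek, DESeq2 and the build mm10 are named in the submitters' processing notes. How reads were counted, on which annotation and with which strand setting, is not given in the sources used here, so overlapping and antisense genes cannot be told apart. Animals were grouped by the exposure label, and no library was a copy of another (chi-square per gene of the most alike pair, 37.4). The labels do not say that animals were independent of litter or day. The p-values take the animals as independent, and they could be too small if animals shared a litter or day.

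Estimated counts were rounded to whole numbers. Zileuton was compared with vehicle over all 90 animals by the edgeR 4.0.16 quasi-likelihood F test (TMM, robust, filterByExpr; R 4.3.3), which left 13248 genes. CPM values use TMM library sizes. The common biological coefficient of variation was 32.1%, so the spread between animals and not depth set the precision of expressed genes; below about 1 CPM counting error adds to it. Spread was tested with limma 3.58.1 (trend) on log2 CPM with a prior count of 2, over genes whose log2 CPM averaged 0 or more. Correlations used 100000 permutations. Exon lengths are unions of GENCODE M21 exons. The count and spread tests were tested on simulated data. Alternatives covered scaling, filter, tool (DESeq2 1.42.0, limma-voom), the authors' normalized values, covariates and left-out libraries.

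The genes and lists were chosen with earlier results of these data known. Full values are given for called genes, for H2-K1, H2-D1, H2-Q10, B2m, Tap1, Nlrc5, H2-Aa, H2-Ab1, H2-Eb1, H2-Ea-ps, Cd74 and Ciita, and for the 5 genes with the widest interquartile range in vehicle animals. Others are given by counts and ranges, pathway lists by called genes or the most abundant one, and correlations by the highest and lowest r. H2-Q7, H2-T23, H2-Q5, H2-M10.2, H2-Oa, Tapbp and the animals at the extremes were named after their values were seen, and the Cd74 correlations with marker sums were added then.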

Additional observations from a re-analysis of the deposited data

How the results depend on the processing

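No paired analysis was possible because the labels give the animals no replicate numbers shared between the arms. Of 569 log2 fold changes of the 38 genes under the alternatives for the whole table, 519 kept their direction and their side of the threshold, 16 lost the call, 10 gained one and 24 changed sign, the last in 12 genes with none called under either setting. The count of genes higher in zileuton was 0, and it was 1 with library totals alone, no low-count filter, DESeq2, limma-voom, the authors' values with either pseudocount, coat colour or block of animal numbers as a covariate, and without the 9 libraries of lowest total. With no filter that gene was H2-M10.2, and otherwise Tapbp. The count lower was 4, and it was 1 with plate row and column (B2m), 1 with the clock score (Tap1, −0.45) and 0 with the place in the block as covariates. It was 3 in limma-voom and with the authors' values (H2-Q9 lost) and without the 9 lowest libraries (H2-D1 lost). With the block of animal numbers as a covariate it was 4, with H2-Q4 in place of H2-Q9. Without 1 library at a time, the counts ran from 0 to 1 higher and from 3 to 6 lower. H2-D1 was the call lost there, in 4 of 90 fits. Calls gained were Tapbp (higher) in 16 fits and, on the lower side, H2-T23 in 9, H2-Q7 in 5, H2-K1 in 2 and H2-Ob in 1.

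The sign changes were these. H2-Bl was at 0.30 in limma-voom, 0.20 and 0.21 with the authors' values (pseudocounts 1 and 0.1), 0.25 with the clock score and 0.53 with the place in the block. H2-DMb2 was at 0.11 in limma-voom, 0.0375 and 0.0715 with the authors' values and 0.13 with plate row and column. Nlrc5 was at 0.0205 in limma-voom. H2-T-ps was at −0.10 with the block of animal numbers and −0.0208 without the 9 lowest libraries, and H2-Ke6 at 0.0328 without those 9. H2-Q8 was at 0.0295 with plate row and column. With the clock score H2-Q6 was at 0.25, H2-Q8 at 0.28 and Tapbpl at −0.0374. With the place in the block Erap1 was at −0.0034, H2-Ke6 at 0.12, H2-Q1 at 0.16, H2-Q6 at 0.45, H2-Q8 at 0.39 and H2-T9 at 0.0222. H2-Q2 was at −0.0088 without the library highest in muscle transcripts (vehicle replicate 8). Leaving out 1 library gave ranges that cross 0 for H2-DMb2 (−0.1355 to 0.0217), H2-Q2 (−0.0478 to 0.0975), H2-Q6 (−0.0895 to 0.0267), H2-Q8 (−0.0786 to 0.0305) and H2-T-ps (−0.0355 to 0.0763). The cause of each change was not tested.

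Without the 2 animals farthest from the median of Nlrc5, 1 of its relations passed in zileuton animals in place of 3, and r with H2-T23 there was 0.0457. With block means removed 2 passed in zileuton and 4 in place of 6 in vehicle animals. Counts of 0 for spread and coat colour were 0 under each alternative tried. Genes below about 3 counts in a library, such as H2-M10.2, are at the limit of this depth.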
